A study of Homo sapiens with 48 samples.

Results

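The ERK pathway feedback genes are a set of 10 genes, DUSP4, DUSP5, DUSP6, SPRY1, SPRY2, SPRY4, SPRED1, SPRED2, ETV4 and ETV5, whose transcripts are known to follow the activity of the kinases ERK1 and ERK2. They were chosen by name, and all 10 were found among the 35535 genes of the count table. RNA was sequenced from 8 established lines of human bladder cancer: 639V, HT1197, HT1376, KU1919, SW780, T24, TCCSUP and VMCUB. Each line received either 250 nM CPI-0209, an inhibitor of the histone methyltransferase EZH2, or the vehicle DMSO, and the treatment lasted 4 days. With 3 DMSO and 3 CPI-0209 libraries a line there were 48 libraries in 16 groups, and every CPI-0209 group had the DMSO group of its own line as control. HT1197, HT1376 and TCCSUP were grown in MEM, SW780, VMCUB (spelled VMCUB1 in the growth label) and 639V in DMEM, KU1919 in RPMI1640 and T24 in McCoy's 5A, so between lines grown in different media the line and the medium cannot be told apart. The comparisons asked how each gene responded to the inhibitor in each line, and how its DMSO level varied between lines.

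ERK is the last kinase of the cascade from growth factor receptors through RAS, RAF and MEK, and it switches on genes whose products turn the cascade down again. The dual-specificity phosphatases DUSP4, DUSP5 and DUSP6 remove the activating phosphates from ERK, Sprouty proteins interfere with signalling between receptors and RAS or RAF, and SPRED proteins recruit the RAS inhibitor neurofibromin. ETV4 and ETV5 belong to the PEA3 group of ETS transcription factors, which carry part of the transcriptional output of the pathway. Activating changes of FGFR3 and of RAS genes are common in bladder cancer, and EZH2 places the repressive methyl marks of Polycomb complex PRC2.

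Library totals ranged from 26481418 to 50916911 counts, with a median of 41665645. Every pair of replicates in a group differed by more than counting noise (chi-square divided by its degrees of freedom of 2.20 or more). The labels do not say that replicates were separate cultures, so the p-values below cover the spread between these samples alone, which can be technical. By the same ratio KU1919 CPI-0209 replicate 1 stood apart from its group (71.9 and 106 against the others, which gave 8.90 between them), as did T24 CPI-0209 replicate 3 (103.7 and 95.8 against 4.43) and T24 DMSO replicate 2 (59.97 and 55.4 against 9.39). Smaller gaps set apart TCCSUP DMSO replicate 1 (27.5 and 32.0 against 5.90), which also had a lower mitochondrial share of counts (1.75% against 3.48% and 3.68%), and HT1376 DMSO replicate 1 (18.1 and 27.9 against 4.41), while the 3 DMSO libraries of VMCUB all differed widely (24.6 to 137.9). Without either T24 library the members' calls in T24 numbered 2 higher and 1 lower, as with all libraries. Without KU1919 CPI-0209 replicate 1 they were 3 higher and 4 lower in KU1919 in place of 2 and 2, and without VMCUB DMSO replicate 3 they were 3 higher and 2 lower in VMCUB in place of 1 and 1. Without TCCSUP DMSO replicate 1 they were 5 higher and 1 lower in TCCSUP, where ETV4 lost its call, and without HT1376 DMSO replicate 1 they were 1 higher and 5 lower in HT1376, where SPRED1 gained one (-0.23, adjusted p = 0.0178). Of 15 epithelial and urothelial markers, the DMSO groups had between 8 (639V) and 14 (SW780) at 1 CPM or more. EPCAM and CDH1 were under 1 CPM in 639V, and KRT20 was under 1 CPM in every line. The summed level of 6 fibroblast markers was 7851 to 9264 CPM in the DMSO libraries of TCCSUP and 11570 to 12070 CPM with CPI-0209, against 5.02 to 294 CPM in the DMSO libraries of the other lines. CPM here are counts relative to TMM-scaled library size. A gene is called, or said to have risen or fallen, at an adjusted p under 0.05 (edgeR's quasi-likelihood test, Benjamini-Hochberg over all genes tested). In such bulk RNA, fewer cells of a kind and less RNA per cell cannot be told apart.

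All 10 genes passed the filter on low counts in every line, which gave 80 responses, of which 21 were called higher, 17 lower and 42 not called. By line, 9.3% (KU1919) to 30.8% (SW780) of all genes tested were called higher and 0.93% (T24) to 30.3% (SW780) lower. Of the members' calls, 7 were 2-fold or more, and the share of such calls over all genes was not computed. SPRY1 rose by 6.15-fold in 639V, 2.28-fold in KU1919 and 2.26-fold in T24, DUSP4 rose by 5.10-fold in 639V, SPRED1 by 2.49-fold in HT1197 and ETV5 by 2.29-fold in VMCUB, and ETV4 fell to 0.48 of its DMSO level in SW780. DUSP5 was the one member with a common direction, called lower in 7 of 8 lines. In the 8 lines the median log2 fold change of the 10 genes lay between -0.15 (KU1919) and 0.20 (TCCSUP), and that of all genes tested between -0.01 (T24) and 0.04 (VMCUB).

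**Figure D1:**
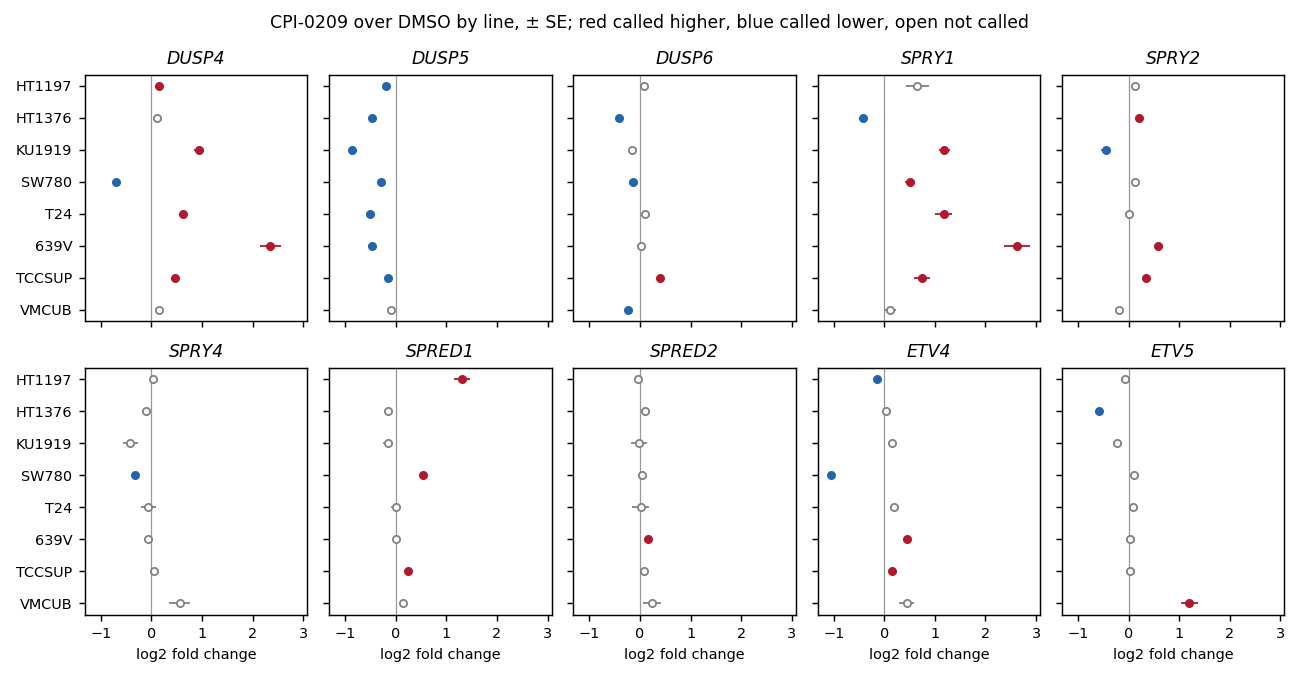
Log2 fold change of CPI-0209 over DMSO (x axis) in each of 8 lines (y axis) for the 10 feedback genes, with its SE as a bar, from edgeR fits of 6 libraries a line. DUSP5 lies left of 0 in every line, while SPRY1 spans from -0.42 to 2.62, DUSP4 from -0.70 to 2.35 and SPRED2 from -0.04 to 0.24.

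The members' calls in each line are set beside the share of all genes called there. In TCCSUP 6 of 10 members rose and 1 fell, where 25.7% of all genes tested rose and 23% fell. With any 1 library of TCCSUP left out, 4 or 5 members rose there, the calls of SPRED1 and ETV4 being those lost. In 639V 5 rose and 1 fell, against 22.1% and 17.1% of all genes. SW780 had the most genes called, with 30.8% of genes higher and 30.3% lower, and there 2 members rose and 5 fell. HT1376 had 1 member higher and 4 lower, against 23.7% and 16% of all genes. HT1197 had 2 higher and 2 lower, against 11.8% and 7.8%, and KU1919 likewise had 2 and 2, against 9.3% and 2.4%. T24 had 2 higher and 1 lower, against 9.37% and 0.93%, and VMCUB had 1 higher and 1 lower, against 16.4% and 11%. Scaling by library totals, in place of TMM, raised the share of calls over all genes that were higher from 60.3% to 75.6% in HT1197, from 50.5% to 75% in SW780, from 56.4% to 71.9% in 639V and from 59.9% to 79.8% in VMCUB. It moved the median log2 fold change of all genes by 0.20 in SW780 and by less than 0.1 in the other lines. The members' split under that scaling was 5 higher and 2 lower in SW780 and 4 higher and 0 lower in VMCUB. Of the 16897 genes tested in SW780, 8499 were then called higher and 2839 lower. Of the 15474 tested in VMCUB, 3255 were called higher and 826 lower.

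Across lines the responses themselves differed. The F test of the 7 line by treatment terms called 9 of the 10 members, where 58.7% of all genes tested were called. DUSP4 had the smallest adjusted p (2.72e-20), followed by ETV4 (4.24e-15) and ETV5 (1.67e-14), and SPRED2 was the member not called (adjusted p = 0.832). In the shared fit, where each line counted as 1 replicate through its 2 sums of counts (16 in all), 0 members rose and 1 fell, against 7.31% and 4.41% of all genes. At an unadjusted p under 0.05 in edgeR 1 member was higher and 1 lower, against 17.3% and 15.7% of all genes, and DESeq2 called 1 higher and 1 lower, against 13.3% and 11.9%. The member that fell was DUSP5, with a shared log2 fold change of -0.39 ± 0.08 (SE, n = 8 lines, edgeR adjusted p = 0.0234).

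DUSP5 encodes a phosphatase that acts on ERK inside the nucleus (chromosome 10, 110497838 to 110511544, plus strand, GRCh38). In KU1919 its DMSO libraries had 66.1, 67.3 and 65.1 CPM and its CPI-0209 libraries 36.8, 36.2 and 36.6 CPM. The groups did not overlap, and the fall of 0.86 ± 0.07 on the log2 scale was the largest of its 8 fitted values (edgeR adjusted p = 0.000487). HT1376, with the highest DMSO level, had 391, 371 and 370 CPM with DMSO and 283, 270 and 251 CPM with CPI-0209, and DUSP5 fell by 0.46 ± 0.06 (adjusted p = 0.000215). T24 went from 35.3, 36.1 and 37.9 CPM to 24.4, 24.6 and 27.4 CPM, and 639V from 14.3, 14.9 and 16.6 CPM to 11.1, 10.9 and 10.98 CPM. In both lines every CPI-0209 library lay below every DMSO library. DUSP5 fell by 0.50 ± 0.08 in T24 (adjusted p = 0.00839) and by 0.47 ± 0.07 in 639V (adjusted p = 8.45e-05). Smaller falls were called in SW780 (by 0.30 ± 0.05, adjusted p = 7.51e-05), HT1197 (by 0.19 ± 0.04, adjusted p = 0.00528) and TCCSUP (by 0.14 ± 0.05, adjusted p = 0.0407), again with no overlap between the groups. VMCUB, the line in which DUSP5 was not called, had 24.8, 29.5 and 25.6 CPM with DMSO and 22.9, 25.2 and 24.4 CPM with CPI-0209, groups that overlapped (log2 fold change -0.09 ± 0.08, adjusted p = 0.427).

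The shared fall of DUSP5 was lost without T24 (adjusted p = 0.059) or without 639V (0.0537), over a range of 0.000179 to 0.059 in 15 alternatives. Library totals ended the call in SW780 (adjusted p = 0.134) and TCCSUP (0.0676). The call in T24 was lost without DMSO replicate 3 (adjusted p = 0.0518) or CPI-0209 replicate 2 (0.06), and the call in TCCSUP without DMSO replicate 3 (0.129), CPI-0209 replicate 1 (0.102) or CPI-0209 replicate 3 (0.167).

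DUSP4, which encodes a nuclear phosphatase of ERK and other MAP kinases (chromosome 8, 29333064 to 29350668, minus strand), rose in 5 lines and fell in 1. Its widest change was in 639V, where the DMSO libraries had 0.562, 0.516 and 0.402 CPM, 64 counts in all, and the CPI-0209 libraries 2.27, 3.11 and 2.28 CPM, 416 counts in all. The groups did not overlap, and the log2 fold change was 2.35 ± 0.20 (edgeR adjusted p = 4.16e-07). Even so, DUSP4 in 639V stayed below its level in every other line. In KU1919, the line with the next lowest level, DUSP4 went from 12.2, 14.4 and 11.99 CPM to 24.9, 24.003 and 25.5 CPM (0.94 ± 0.10, adjusted p = 0.00123). T24 rose from 101, 98.8 and 102 CPM to 153, 155 and 150 CPM (0.62 ± 0.08, adjusted p = 0.00312), and TCCSUP from 135, 136 and 131 CPM to 178, 186 and 181 CPM (0.47 ± 0.05, adjusted p = 4.65e-06). SW780 went the other way: its DMSO libraries had 106, 108 and 112 CPM and its CPI-0209 libraries 71.2, 65.1 and 67.8 CPM, a fall of 0.70 ± 0.04 (adjusted p = 1.53e-10). T24 and SW780 had nearly the same DMSO level, and their CPI-0209 libraries lay on opposite sides of it. The rise in HT1197 was small (0.14 ± 0.03, adjusted p = 0.00831) and was not called in 1 fit of all 48 libraries (adjusted p = 0.335). In HT1376 and VMCUB every CPI-0209 library was above every DMSO library, but the tests did not call DUSP4 (log2 fold changes 0.11 ± 0.05 and 0.16 ± 0.06).

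DUSP6 encodes the cytoplasmic phosphatase most specific to ERK (chromosome 12, 89347232 to 89353271, minus strand). It fell in 3 lines and rose in 1. In HT1376 the DMSO libraries had 218, 228 and 224 CPM and the CPI-0209 libraries 168, 165 and 157 CPM, a fall of 0.42 ± 0.05 without overlap (edgeR adjusted p = 0.000135). In TCCSUP it rose from 15.1, 15.6 and 17.2 CPM to 20.1, 21.4 and 20.4 CPM (0.40 ± 0.07, adjusted p = 0.00031), again without overlap. The falls in SW780 (by 0.13 ± 0.05, adjusted p = 0.0211, groups overlapping) and VMCUB (by 0.24 ± 0.07, adjusted p = 0.0474) were less firm. Library totals turned the SW780 value to 0.07 (adjusted p = 0.199) and took the VMCUB value to -0.14 (0.137). The SW780 call was also lost without DMSO replicate 2 (adjusted p = 0.0592), DMSO replicate 3 (0.055) or CPI-0209 replicate 1 (0.12) and in 1 fit of all 48 libraries (0.113), and the VMCUB call with no filter on low counts (0.0782) and without DMSO replicate 1 (0.144) or any of CPI-0209 replicates 1 to 3 (0.173, 0.153 and 0.099). An antisense gene, AC024909.2, shares 1875 exon bases with DUSP6, and use of strand in the counting is not stated.

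**Figure D2:**
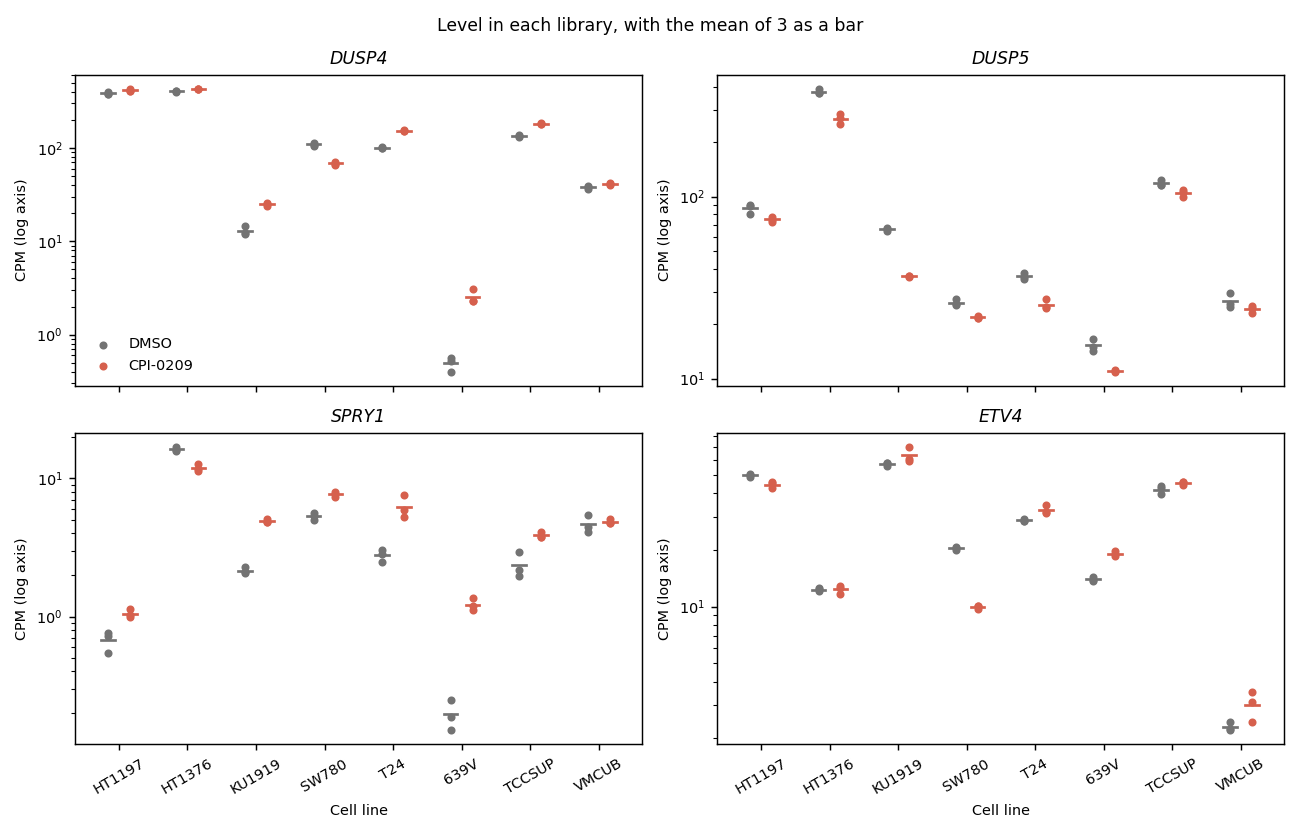
CPM on a log axis (y axis) of DUSP4, DUSP5, SPRY1 and ETV4 in each library of 8 lines (x axis), DMSO in grey and CPI-0209 in red, with the mean of 3 as a bar. DUSP4 and SPRY1 move up from their lowest DMSO level in 639V, DUSP5 moves down in most lines, and ETV4 drops in SW780.

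SPRY1 (chromosome 4, 123396795 to 123403760, plus strand) encodes an inhibitor of receptor signalling that is itself induced by that signalling. It rose in 5 lines and fell in 1. In 639V its DMSO libraries had 0.151, 0.247 and 0.188 CPM, 25 counts in all, and its CPI-0209 libraries 1.11, 1.19 and 1.35 CPM, 197 counts in all. That rise of 2.62 ± 0.26 (edgeR adjusted p = 1.93e-06) was the largest fitted change of any member in any line. KU1919 went from 2.05, 2.28 and 2.11 CPM to 4.83, 4.84 and 5.06 CPM (1.19 ± 0.11, adjusted p = 0.000838), and T24 from 2.86, 2.47 and 3.04 CPM to 5.90, 5.24 and 7.65 CPM (1.18 ± 0.17, adjusted p = 0.00486). TCCSUP rose by 0.75 ± 0.16 (adjusted p = 0.00145) and SW780 by 0.50 ± 0.09 (adjusted p = 5.89e-05). In each of these 5 lines the groups did not overlap. HT1376, the line with the highest SPRY1 level, was the exception: its DMSO libraries had 15.8, 16.9 and 16.1 CPM and its CPI-0209 libraries 12.7, 11.8 and 11.3 CPM, a fall of 0.42 ± 0.07 (adjusted p = 0.00142). HT1197 had 0.546, 0.726 and 0.758 CPM against 1.13, 1.02 and 0.984 CPM, which did not overlap but just missed the call (0.65 ± 0.22, adjusted p = 0.0513, called with library totals at 0.0451 and in 1 fit of all 48 libraries at 0.0417). The shared value of SPRY1 was 0.77 ± 0.28 (edgeR adjusted p = 0.0979), and DESeq2 called it (adjusted p = 0.0282).

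SPRY2 (chromosome 13, 80335976 to 80340951, minus strand), which encodes a Sprouty inhibitor that binds the ubiquitin ligase CBL, rose in 3 lines and fell in 1. In 639V it went from 10.5, 10.7 and 10.9 CPM to 15.9, 17.1 and 14.9 CPM (0.57 ± 0.06, edgeR adjusted p = 6.76e-06), and in TCCSUP from 41.1, 45.0 and 45.9 CPM to 54.2, 56.2 and 52.8 CPM (0.34 ± 0.06, adjusted p = 0.000276). Neither pair of groups overlapped. In KU1919 it fell by 0.45 ± 0.08 (adjusted p = 0.0136), from 21.4, 22.9 and 21.9 CPM to 15.6, 16.6 and 16.2 CPM, so that SPRY1 and SPRY2 moved in opposite directions in that line. The KU1919 call was lost without DMSO replicate 1 (adjusted p = 0.06), 2 (0.0897) or 3 (0.0728). The call in HT1376 (0.21 ± 0.07, adjusted p = 0.0476, groups overlapping) was lost with RLE size factors (0.0653), with DESeq2 (0.0757), with no filter on low counts (0.0584) and without DMSO replicate 2 (0.19), DMSO replicate 3 (0.205), CPI-0209 replicate 2 (0.16) or CPI-0209 replicate 3 (0.141). SPRY4 (chromosome 5, 142310427 to 142326455, minus strand), a Sprouty inhibitor whose transcript is often used as a readout of ERK output, was called in 1 line, SW780, where it fell by 0.33 ± 0.06 (adjusted p = 0.000172) from 13.3, 14.4 and 13.5 CPM to 10.9, 11.4 and 11.1 CPM. With library totals that value was -0.13 (adjusted p = 0.0963). In KU1919 SPRY4 had 49.8, 52.5 and 51.8 CPM with DMSO and 31.3, 38.7 and 45.1 CPM with CPI-0209, which did not overlap (-0.42 ± 0.15, adjusted p = 0.131). Without CPI-0209 replicate 1 of KU1919, the lowest of them, the value was -0.26 and was called (adjusted p = 0.00578), and DESeq2 on all 6 libraries also called it (0.0496). VMCUB, with the lowest SPRY4 level, had 1.65, 1.20 and 2.08 CPM and then 2.49, 2.22 and 2.30 CPM (0.56 ± 0.21, adjusted p = 0.0906), and without DMSO replicate 3 this value was called (0.73, adjusted p = 0.0172). Without the same library SPRY2 in VMCUB was called as well, at -0.26 (adjusted p = 0.0258). It was also called there with RLE size factors (-0.22, adjusted p = 0.0496) and in 1 fit of all 48 libraries (-0.23, 0.012). That single fit called SPRY4 in VMCUB too (0.50, adjusted p = 0.014).

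The start regions of the Sprouty genes are shown because ETV4 and ETV5, members of the same set, bind ETS motifs. The form searched was CCGGAA. The shorter GGAA was not searched. With both strands read, it also occurs unmarked in the SPRY1, SPRY2 and SPRY4 sequences printed below. RefSeq (GRCh38.p14) promoters were used for 6 of the members, DUSP6, SPRY1, SPRY2, SPRY4, SPRED1 and SPRED2, with 10 start sites. The promoters of the other members were not searched, and their absence here does not mean that RefSeq holds none. The motif CCGGAA was searched on both strands from 250 bases before to 50 bases after each start, and it was in 2 of the 10, at SPRY1 and SPRY2, against 17.2% of 35116 promoters. The AP-1 motif TGANTCA was in 1, at the second start of SPRED2 (7.71% of all promoters), and the CRE motif TGACGTCA in 0 (1.85%). No motif searched overlaps another in the sequences printed. The 250 bases before the start of each are given 5′ to 3′ on the gene's strand, with CCGGAA in capitals: the second start of SPRY1 (chr4:123398136-123398385, plus strand), the first start of SPRY2 (chr13:80341127-80341376, minus strand) and SPRY4 (chr5:142324248-142324497, minus strand), which holds no CCGGAA. These matches are descriptions of the letters, not of bound sites.
SPRY1: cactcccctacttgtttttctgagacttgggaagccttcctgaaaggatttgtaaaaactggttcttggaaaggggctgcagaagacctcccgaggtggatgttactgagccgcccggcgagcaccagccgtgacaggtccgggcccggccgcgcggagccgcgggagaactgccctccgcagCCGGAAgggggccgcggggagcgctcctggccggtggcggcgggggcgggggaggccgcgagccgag
SPRY2: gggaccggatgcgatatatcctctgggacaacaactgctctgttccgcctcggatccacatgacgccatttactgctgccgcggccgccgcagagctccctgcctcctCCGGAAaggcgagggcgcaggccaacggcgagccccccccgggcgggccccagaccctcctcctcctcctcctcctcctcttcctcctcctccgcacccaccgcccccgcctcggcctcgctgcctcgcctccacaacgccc
SPRY4: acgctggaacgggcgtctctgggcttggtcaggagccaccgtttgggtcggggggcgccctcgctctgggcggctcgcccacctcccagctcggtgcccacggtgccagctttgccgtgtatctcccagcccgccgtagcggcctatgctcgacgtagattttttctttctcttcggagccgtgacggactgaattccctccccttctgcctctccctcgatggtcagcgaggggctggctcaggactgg
The motif CCGGAA begins at position -67 from the start in SPRY1 and at -142 in SPRY2. The SPRY1 window (300 bases) had 69.3% GC and 32 CpG, the SPRY2 window 71% and 30, and the SPRY4 window 65% and 26, against medians of 58.7% and 14 over all promoters. The other starts of these genes, which are not printed, had fewer: the first start of SPRY1 had 47.7% GC and 12 CpG, the second of SPRY2 63% and 15, and the third of SPRY2 44.7% and 6.

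SPRED1 encodes a membrane-bound inhibitor that brings neurofibromin to RAS (chromosome 15, 38252326 to 38357249, plus strand). It rose in 3 lines. HT1197 had the lowest level, with 1.37, 2.30 and 1.57 CPM in DMSO and 4.34, 4.54 and 3.94 CPM with CPI-0209, 183 and 497 counts in all. The groups did not overlap, and the rise was 1.31 ± 0.16 (edgeR adjusted p = 2.33e-05). In SW780 it rose from 20.4, 20.4 and 20.1 CPM to 28.5, 31.8 and 29.8 CPM (0.54 ± 0.05, adjusted p = 7.01e-08), also without overlap. The third call, in TCCSUP (0.24 ± 0.09, adjusted p = 0.0421), rested on groups that overlapped, and it was lost in 1 fit of all 48 libraries (0.064) and without DMSO replicate 2 (0.148), DMSO replicate 3 (0.164) or CPI-0209 replicates 1, 2 or 3 (0.0658, 0.15 and 0.0558). In T24, where SPRED1 was highest, the value was 0.01 ± 0.10 (adjusted p = 0.986).

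SPRED2, a close relative of SPRED1 with the same role (chromosome 2, 65310851 to 65432637, minus strand), had the narrowest range of responses. Its log2 fold changes lay between -0.04 (HT1197) and 0.24 (VMCUB). It was called in 639V alone, from 48.9, 45.6 and 48.2 CPM to 56.2, 52.1 and 50.98 CPM (0.16 ± 0.05, edgeR adjusted p = 0.0283), a call lost in 1 fit of all 48 libraries (0.414) and without DMSO replicate 1 (0.06), DMSO replicate 2 (0.147), CPI-0209 replicate 1 (0.157) or CPI-0209 replicate 3 (0.0515). The spread between libraries limited this gene in some lines: the CPI-0209 libraries of KU1919 had 89.1, 120 and 132 CPM, and the DMSO libraries of VMCUB 35.7, 26.8 and 44.7 CPM. Without CPI-0209 replicate 1, the lowest of the KU1919 libraries, the KU1919 value went from -0.02 to 0.15 and was called (adjusted p = 0.0275). Without DMSO replicate 3 of VMCUB, the highest there, SPRED2 was called at 0.39 (adjusted p = 0.0289).

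ETV4 encodes a PEA3 factor that activates migration and growth genes downstream of ERK (chromosome 17, 43527844 to 43579620, minus strand). It rose in 2 lines and fell in 2. In SW780 the DMSO libraries had 20.6, 20.5 and 20.1 CPM and the CPI-0209 libraries 9.76, 10.0 and 10.1 CPM. The groups lay far apart, and the fall of 1.06 ± 0.06 (edgeR adjusted p = 2.25e-11) was the largest fall of any member; with library totals it was -0.86 (adjusted p = 1.37e-10). In 639V it rose from 13.7, 13.8 and 14.3 CPM to 18.5, 19.8 and 19.0 CPM (0.45 ± 0.06, adjusted p = 1.69e-05), without overlap. Smaller calls were made in HT1197 (a fall of 0.15 ± 0.04, adjusted p = 0.0201) and TCCSUP (0.15 ± 0.05, adjusted p = 0.0302). The HT1197 call was lost with library totals (adjusted p = 0.0705), in 1 fit of all 48 libraries (0.119) and without DMSO replicate 1 (0.057), DMSO replicate 2 (0.0854) or CPI-0209 replicate 1 (0.118). The TCCSUP call was lost with DESeq2 (adjusted p = 0.0539), with no filter on low counts (0.0935), in 1 fit of all 48 libraries (0.148) and without DMSO replicate 1 (0.0809), DMSO replicate 2 (0.0609) or CPI-0209 replicates 1, 2 or 3 (0.0549, 0.0974 and 0.086). In VMCUB ETV4 was not called (0.44 ± 0.16, adjusted p = 0.074). It was called higher there with library totals (adjusted p = 0.0437), without CPI-0209 replicate 1 (0.0476) and in 1 fit of all 48 libraries (0.00581). ETV4 shares 68 exon bases with DHX8 on the opposite strand. DHX8 was called in SW780 (0.13 ± 0.05, adjusted p = 0.0257) and in 639V (-0.15 ± 0.04, 0.0135), against the direction of ETV4 in each. In VMCUB DHX8 stood far higher than ETV4, at 83.8 mean CPM with DMSO and 98.4 with CPI-0209. Its value there had the direction of ETV4 (0.28 ± 0.135, adjusted p = 0.152). The part of DHX8 in the ETV4 counts was not tested.

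ETV5, the second PEA3 factor measured (chromosome 3, 186046308 to 186110318, minus strand), rose in 1 line and fell in 1. In VMCUB, where it was lowest, the DMSO libraries had 1.75, 1.71 and 1.20 CPM and the CPI-0209 libraries 3.12, 3.63 and 3.47 CPM, 164 and 406 counts in all. The groups did not overlap, and the rise was 1.20 ± 0.17 (edgeR adjusted p = 0.00301). DGKG, a gene on the same strand that shares 164 exon bases with ETV5, stood higher than ETV5 in VMCUB and rose as well, from 9.79 to 13.5 mean CPM (0.52 ± 0.10, adjusted p = 0.0115). Its part in the ETV5 counts was not tested. In HT1376 ETV5 fell from 32.4, 34.8 and 37.0 CPM to 23.0, 22.4 and 22.7 CPM (0.58 ± 0.06, adjusted p = 6.55e-05), without overlap. ETV4 had 12.3 ± 0.19 and 12.4 ± 0.59 CPM (SD, n = 3) in the same libraries. ETV5 in KU1919 was called lower without CPI-0209 replicate 1 (-0.16, adjusted p = 0.0225). In SW780 the pair parted the other way, with ETV4 lower and ETV5 at 0.10 ± 0.05 (adjusted p = 0.0878).

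The DMSO levels of the set differed widely between lines. Over the 28 pairs of lines, 256 of 280 comparisons of a member were called (91.4%), where 72.2% of all comparisons of all genes were called. DUSP4 spanned from 403 ± 3.6 CPM in HT1376 to 0.494 ± 0.082 CPM in 639V (SD, n = 3), an 829.6-fold range (edgeR adjusted p = 4.16e-26). SPRED2 spanned 3.32-fold, from 116 ± 0.83 CPM in KU1919 to 34.5 ± 4.0 CPM in TCCSUP (adjusted p = 5.85e-11). When the 8 lines were ordered by level, 50 of 70 neighbours in the orders were called different. No such share was computed over all genes, so this count describes the members alone.

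HT1376 and 639V stood at opposite ends for the phosphatases. HT1376 was highest and 639V lowest for DUSP4, DUSP5, DUSP6 and SPRY1. DUSP5 had 377 ± 12 CPM in HT1376, then 118 in TCCSUP, 86.4 in HT1197, 66.1 in KU1919, 36.4 in T24, 26.6 in VMCUB, 26.2 in SW780 and 15.2 ± 1.2 CPM in 639V, and of the neighbours in that order only VMCUB and SW780 were not called different (adjusted p = 0.912). DUSP6 ran from 223 ± 4.8 CPM in HT1376 through KU1919 (141), HT1197 (83.3), T24 (79.8), SW780 (71.4), VMCUB (28.3) and TCCSUP (15.97) to 639V (6.98 ± 0.36), and HT1197 and T24 were the neighbours not called different (adjusted p = 0.438). DUSP4 came next to its HT1376 level in HT1197 (382 ± 12 CPM), followed by TCCSUP (134), SW780 (108.6), T24 (100.4), VMCUB (37.8) and KU1919 (12.9). For DUSP4 the neighbours not called different were SW780 and T24 (adjusted p = 0.171). TCCSUP thus ranked 2 of 8 for DUSP5, 3 for DUSP4 and 7 for DUSP6.

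**Figure D3:**
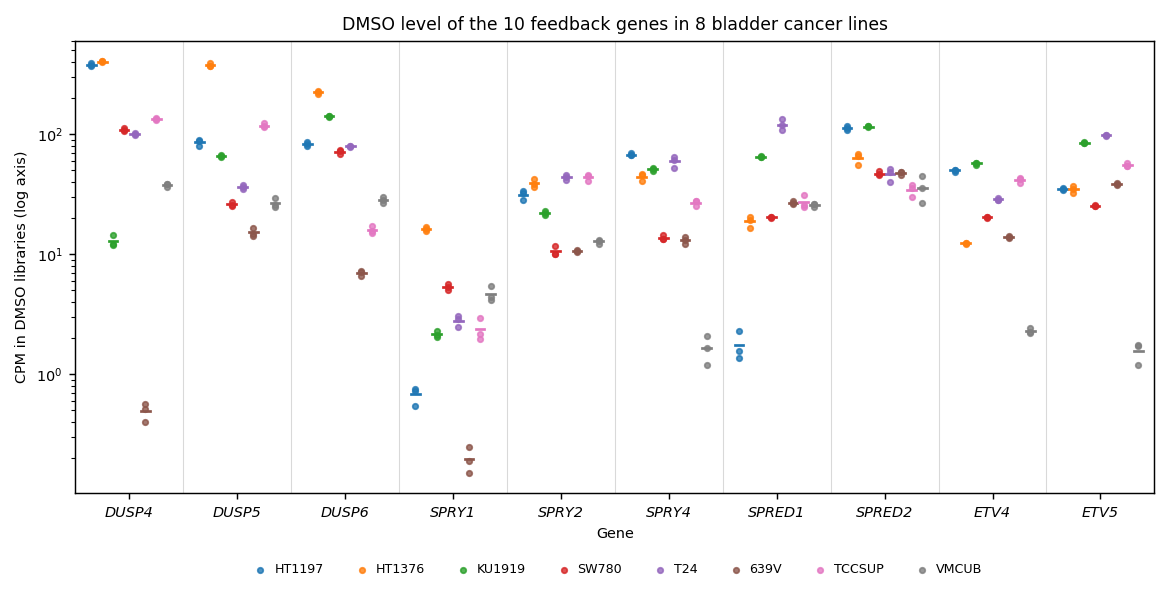
CPM on a log axis (y axis) of the 10 feedback genes (x axis) in the 3 DMSO libraries of each line, coloured by line, with the mean as a bar. SPRY2 spans 4.23-fold and SPRED2 3.32-fold over the lines, DUSP4 reaches below 1 CPM in 639V, and VMCUB holds the lowest SPRY4, ETV4 and ETV5.

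SPRY1 was low throughout. It had 16.3 ± 0.59 CPM in HT1376, 5.34 in SW780, 4.66 in VMCUB, 2.79 in T24, 2.36 in TCCSUP, 2.15 in KU1919, 0.677 in HT1197 and 0.195 ± 0.048 CPM in 639V. The order between SW780 and VMCUB, T24 and TCCSUP, and TCCSUP and KU1919 was not called. SPRY2 varied 4.23-fold, from 44.0 ± 2.5 CPM in TCCSUP and 43.8 ± 2.2 in T24, which were not called different (adjusted p = 0.853), through HT1376 (39.2), HT1197 (31.4), KU1919 (22.0) and VMCUB (12.8), to 639V and SW780 (10.7 and 10.6, adjusted p = 0.695). T24 and HT1376 were likewise not called different for SPRY2 (adjusted p = 0.173).

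SPRY4 was highest in HT1197 (67.7 ± 1.9 CPM), T24 (59.3), KU1919 (51.4) and HT1376 (44.4), then TCCSUP (26.9), SW780 (13.7) and 639V (13.05), and lowest in VMCUB (1.64 ± 0.44 CPM). HT1197 and T24, KU1919 and HT1376, and SW780 and 639V were not called different in it. SPRED1 was highest in T24 (121 ± 13 CPM) and KU1919 (65.0), then lay between 27.1 and 18.8 CPM in TCCSUP, 639V, VMCUB, SW780 and HT1376, and was 1.75 ± 0.49 CPM in HT1197. Within that middle group only VMCUB and SW780 were called different as neighbours (adjusted p = 0.00442). SPRED2 was at 116 CPM in KU1919 and 113 in HT1197, which were not called different (adjusted p = 0.752), then at 63.1 in HT1376, 47.6 in 639V, 47.0 in SW780, 46.6 in T24, 35.7 in VMCUB and 34.5 in TCCSUP. The neighbours among 639V, SW780 and T24, and VMCUB and TCCSUP, were not called different in it either. HT1197 thus held near the top level of SPRED2 and the lowest level of SPRED1.

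VMCUB was lowest for both PEA3 factors. ETV4 had 57.2 ± 1.2 CPM in KU1919, 49.98 in HT1197, 41.8 in TCCSUP, 28.7 in T24, 20.4 in SW780, 14.0 in 639V, 12.3 in HT1376 and 2.31 ± 0.12 CPM in VMCUB, and all 7 neighbours in that order were called different. ETV5 had 98.1 ± 1.1 CPM in T24, 85.4 in KU1919, 55.4 in TCCSUP, 38.3 in 639V, 35.0 in HT1197, 34.7 in HT1376, 25.4 in SW780 and 1.55 ± 0.31 CPM in VMCUB, with HT1197 and HT1376 the neighbours not called different (adjusted p = 0.463).

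Between genes, levels were compared per kilobase of exon in DMSO. DUSP5 was the highest member in HT1376 (144 ± 4.7 CPM per kb), TCCSUP (45.3 ± 1.8) and VMCUB (10.2 ± 0.95), DUSP6 in KU1919 (30.4 ± 0.37), SW780 (15.4 ± 0.60) and T24 (17.2 ± 0.16), DUSP4 in HT1197 (52.6 ± 1.6) and SPRED2 in 639V (9.23 ± 0.33). SPRY1 was the lowest in 6 of 8 lines on this scale, from 0.049 CPM per kb in 639V to 1.35 in SW780, and SPRED1 was lowest in HT1376 (2.27) and SPRY4 in VMCUB (0.25). A phosphatase had the highest mean in 7 of the 8 lines. In T24 its lead was narrow, with ETV5 at 16.9 ± 0.19 CPM per kb beside DUSP6 at 17.2 ± 0.16. In SW780 DUSP4 (14.97 ± 0.42) was likewise near to DUSP6 (15.4 ± 0.60). These differences between genes were not tested. The largest rises of DUSP4 and SPRY1 (639V), SPRED1 (HT1197) and ETV5 (VMCUB) each came in the line with that gene's lowest DMSO level, where the values rest on 25 to 183 DMSO counts over 3 libraries.

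Over the 16 group means of log2 CPM (pseudocount 0.5 CPM), the genes outside the set most like DUSP6 included NEDD4 and TMEM40 (Pearson r = 0.935 each) and CITED4 and PLCB1 (0.914 each), out of 14041 genes with at least 5 CPM in the highest group. NEDD4 encodes a ubiquitin ligase. The members themselves had lower r with DUSP6, from -0.03 for SPRED1 to 0.64 for DUSP4. The 16 points share a scaling and come from 8 lines, each present with both treatments, so they are a description without a test.

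The rest of the pathway was read from lists chosen beside the members. In each list the counts of the shared fit stand against the same shares of all genes: 7.31% higher and 4.41% lower by edgeR, 17.3% and 15.7% at an unadjusted p under 0.05, and 13.3% and 11.9% by DESeq2, with a median log2 fold change of -0.01. Of 10 other members of the same families, 1 rose and 0 fell in the shared edgeR fit (median log2 fold change 0.35), with 5 higher and 0 lower both at an unadjusted p under 0.05 and by DESeq2. The one called was DUSP8, a phosphatase of the stress kinases (0.88 ± 0.19, edgeR adjusted p = 0.0249). DUSP8 was called higher in each of 8 lines, and the shared call was lost without HT1376 (0.0543) or T24 (0.0511). Of 19 genes of the RAS to ERK cascade, 0 rose and 4 fell in edgeR (median -0.07), with 1 higher and 6 lower both at an unadjusted p under 0.05 and by DESeq2. These were MAP2K1, which encodes MEK1 (fell by 0.34 ± 0.05, adjusted p = 0.0148), the adaptors SHC1 (by 0.26 ± 0.05, 0.0186) and GRB2 (by 0.25 ± 0.06, 0.0265), and NRAS (by 0.20 ± 0.05, 0.0319). All of them had lower means in 8 of 8 lines. MAP2K1 was called under each of 15 alternatives, whereas library totals ended the calls of SHC1 (0.0513), GRB2 (0.0626) and NRAS (0.0952). SHC1 also lost its call without 639V (0.0504), GRB2 without T24 (0.0643), 639V (0.0557) or TCCSUP (0.0675), and NRAS without HT1376 (0.0517), KU1919 (0.051), T24 (0.0726), 639V (0.0587), TCCSUP (0.0742) or VMCUB (0.0608), and without replicate 2 (0.0617) or 3 (0.0584) of every group.

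Of 14 growth factor receptors, 3 rose and 0 fell in the shared edgeR fit (median 0.71), where 7.31% of all genes rose and 4.41% fell. At an unadjusted p under 0.05, and by DESeq2, 7 receptors were higher and 0 lower, against 17.3% and 13.3% of all genes higher. The 3 were the receptor tyrosine kinases RET (2.94 ± 0.45, edgeR adjusted p = 0.0148), FGFR3 (0.92 ± 0.16, 0.0169) and FGFR4 (1.35 ± 0.29, 0.025). Each had a higher mean in 8 of 8 lines. RET and FGFR3 were called under each of 15 alternatives, and FGFR4 was not without SW780 (0.0514), T24 (0.0518), 639V (0.0541), TCCSUP (0.0561) or VMCUB (0.0506). Of 16 other genes known to be induced by ERK, 2 rose and 0 fell in edgeR (median 0.01), with 3 higher and 2 lower both at an unadjusted p under 0.05 and by DESeq2. These were EGR2, an early growth response transcription factor (1.68 ± 0.22, adjusted p = 0.0134), and EPHA4, an ephrin receptor (1.23 ± 0.24, 0.0209, lost without T24 at 0.0524). With DMSO, EGR2 had 0.41 mean CPM in HT1197 and 28.65 in HT1376. Of 8 RAS GTPase-activating proteins, which switch RAS off, 0 rose and 0 fell in the shared fit (median 0.03), with 1 higher and 1 lower at an unadjusted p under 0.05 in edgeR and 1 higher and 0 lower called by DESeq2.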

How the data were processed

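Per the labels' protocols, total RNA was extracted with Trizol and sequenced as paired-end reads. They name a TruSeq kit and a strand-specific protocol. The sources used here do not give strand use in counting, and genes with overlapping or antisense partners are therefore uncertain. The values are raw whole-number counts for each Ensembl gene and each of 48 libraries, as deposited by the authors. STAR 2.7.3a, RSEM 1.3.1 and the hg38 build are named, per the submitters' processing notes. How the estimates of RSEM became whole counts, and the annotation, are likewise not given in these sources. A gene name table gave symbols for 35414 of 35535 genes, and coordinates came from GENCODE 29 (GRCh38, the same assembly as hg38).

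From these counts, edgeR 4.0.16 (R 4.3.3) compared CPI-0209 with DMSO on the 6 libraries of each line, with TMM scaling, filterByExpr, the robust quasi-likelihood test and Benjamini-Hochberg adjustment over all genes tested (threshold 0.05). The shared response was tested on 16 sums of counts with terms for line and treatment, the difference of the response by an F test of 7 interaction terms on 48 libraries, and DMSO levels in all 28 pairs of lines on 24 libraries, adjusted over genes and pairs together. Each SE was derived from the log2 fold change and the square root of F. The fits were tested on simulated counts with 200 changed genes: of 2-fold changes 83% (T24) to 100% (SW780) were recovered by line, and of 1.5-fold changes 24% (T24) to 93% (639V). In the shared fit the shares were 76% and 47%. False calls by line ran from 3 of 110 calls in T24, the lowest share, to 22 of 204 in HT1376, the highest. That share was over 0.05 in every line but T24, and in the shared fit 4 of 127 calls were false. The changed genes were drawn from those above a floor of mean counts, so genes with few counts were not covered.

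The members and lists were chosen with earlier results of these data known. All 10 members are named, and from each other list at most 4 genes, those with the smallest p among the called. Genes like DUSP6 were the 5 with the highest Pearson correlation, of which 1 is not reported here. Alternatives were RLE size factors, library totals, DESeq2 1.42.0, no filter on low counts, a replicate block, 1 fit of all 48 libraries, and leaving out each library, replicate number or line. The alternatives for the pathway genes outside the set were added after the data were seen. Python 3.11.15 and matplotlib 3.10.9 drew the figures.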

Additional observations from a re-analysis of the deposited data

Results flagged for a closer look

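The response to CPI-0209 differed between the 8 lines for 9 of the 10 genes, by edgeR's quasi-likelihood F test of the 7 interaction terms with Benjamini-Hochberg adjustment over all genes tested, which called 58.7% of them. Among the phosphatases the adjusted p was 2.72e-20 for DUSP4 (log2 fold changes from -0.70 in SW780 to 2.35 in 639V), 3.58e-10 for DUSP6 (from -0.42 in HT1376 to 0.40 in TCCSUP) and 1.37e-08 for DUSP5, which was lower in every line but by 0.09 to 0.86. For the Sprouty genes it was 3.35e-13 for SPRY1 (from -0.42 in HT1376 to 2.62 in 639V), 9e-10 for SPRY2 (from -0.45 in KU1919 to 0.57 in 639V) and 0.00335 for SPRY4 (from -0.42 in KU1919 to 0.56 in VMCUB, neither value called by itself). The difference for SPRY4 was lost without VMCUB (adjusted p = 0.0555) and without replicate 1 (0.114) or 2 (0.153) of every group. SPRED1 had 1.45e-09 (from -0.16 in KU1919 to 1.31 in HT1197). ETV4 had 4.24e-15 (from -1.06 in SW780 to 0.45 in 639V) and ETV5 1.67e-14 (from -0.58 in HT1376 to 1.20 in VMCUB).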

How the results depend on the processing

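Of the 38 calls of a member in a line, 25 held under each of 12 alternatives and 13 were lost under at least 1. Replicate numbers did not pair the libraries: deviations of same-numbered DMSO and CPI-0209 libraries correlated between -0.339 and 0.215 over 24 pairs, no line had every pair over 0.1, and 9 of 48 libraries correlated best with their own number. With the replicate block the calls higher in HT1376, lower in T24 and lower in VMCUB went to 0 each, and the other counts by line and the 9 members that differed between lines stayed as they were. The cause of the changes below was not tested, except that leaving out a library or line leaves fewer samples.

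Scaling by library totals gave 1 member lower in HT1197, 5 higher and 2 lower in SW780, 0 lower in TCCSUP, and 4 higher and 0 lower in VMCUB. Over all genes it called 685 lower in HT1197, 8499 higher and 2839 lower in SW780, 3186 lower in TCCSUP, and 3255 higher and 826 lower in VMCUB. It turned DUSP6 in SW780 to 0.070, and, among values not called, SPRED2 in KU1919 to 0.03, SPRY4 in T24 to 0.0025, DUSP5 in VMCUB to 0.0048, and in the shared fit DUSP6 to 0.021 and SPRY4 to 0.012. A single fit of all 48 libraries gave 1 lower in HT1197, 5 lower in KU1919, and 3 higher and 2 lower in VMCUB, and turned ETV5 in TCCSUP to -0.00098. It also lost the calls of SPRED1 (edgeR adjusted p = 0.064) and ETV4 (0.148) in TCCSUP, DUSP6 in SW780 (0.113) and SPRED2 in 639V (0.414). ETV4 in T24 gained a call in that fit (0.18, adjusted p = 0.0355). Counts that moved by less under the other alternatives are not listed in this paragraph. In HT1376 0 members were higher with RLE size factors, with DESeq2 and with no filter on low counts. VMCUB had 2 lower with RLE size factors and 0 with no filter. In the shared fit DESeq2 gave 1 higher (SPRY1), and leaving out T24 or 639V gave 0 lower.

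Values near 0 that were not called changed sign. With RLE size factors, DESeq2, no filter and the single fit, T24 had -0.025, -0.025, -0.0057 and -0.0082 for SPRY2, -0.025, -0.025, -0.0057 and -0.0077 for SPRED1, and -0.023, -0.023, -0.0019 and -0.0060 for SPRED2. SPRED1 in 639V was -0.0010 with RLE size factors, -0.0010 with DESeq2 and -0.00078 with the replicate block. The shared value of ETV4 was -0.0027 with RLE size factors, -0.0015 with DESeq2, and -0.0073, -0.015, -0.054, -0.0018 and -0.045 without KU1919, T24, 639V, TCCSUP and VMCUB, and that of ETV5 was -0.10 without VMCUB.

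Leaving out 1 library at a time gave 1 to 2 members lower in HT1197, 0 to 1 higher and 4 to 5 lower in HT1376, 2 to 3 higher and 1 to 4 lower in KU1919 (3 and 4 without CPI-0209 replicate 1), 2 to 3 higher and 4 to 5 lower in SW780, 0 to 1 lower in T24, 4 to 5 higher in 639V, 4 to 5 higher (against 6 with all libraries) and 0 to 1 lower in TCCSUP, and 1 to 3 higher and 0 to 2 lower in VMCUB. Over the same fits SPRED2 ranged from -0.16 to 0.15 in KU1919, -0.00088 to 0.060 in SW780, -0.098 to 0.14 in T24 and -0.021 to 0.13 in TCCSUP. In T24 SPRY2 ranged from -0.035 to 0.032, SPRY4 from -0.16 to 0.080 and SPRED1 from -0.075 to 0.075. DUSP6 ranged from -0.034 to 0.056 and SPRED1 from -0.052 to 0.038 in 639V, SPRY4 from -0.015 to 0.092 in TCCSUP and SPRY1 from -0.022 to 0.22 in VMCUB. Without 1 replicate number the shared value of ETV4 ranged from -0.00036 to 0.037. DMSO levels were called different in 243 to 254 of 280 comparisons under the alternatives, against 256, and 8 to 9 members differed between lines, SPRY4 being the one lost. Depth limits SPRY1 and DUSP4 in 639V, with 25 and 64 DMSO counts over 3 libraries.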

Other observations

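Among relatives of the feedback genes outside the set, DUSP9, which encodes another phosphatase of ERK, was called in all 8 lines. It rose in 6, from 1.41 ± 0.09 to 6.59 ± 0.91 CPM in T24 (SD, n = 3, log2 fold change 2.24 ± 0.14 SE, edgeR adjusted p = 0.000206), from 2.05 ± 0.58 to 9.49 ± 0.66 CPM in 639V (2.20 ± 0.15, adjusted p = 3.1e-07), and by 1.76, 1.12, 0.95 and 0.91 in VMCUB, KU1919, HT1376 and HT1197. SW780 showed a decrease instead, with a log2 fold change of -0.88 ± 0.06 (adjusted p = 6.22e-10), as did TCCSUP with -0.66 ± 0.07 (adjusted p = 3.71e-06). In SW780, where 30.3% of all genes were called lower and 30.8% higher, DUSP1, DUSP4, DUSP5, DUSP6, DUSP9 and DUSP16 were called lower and DUSP2, DUSP7, DUSP8 and DUSP10 higher (by 1.80, 0.33, 1.60 and 0.56). With library totals DUSP5 and DUSP6 were not called there (-0.09, adjusted p = 0.134, and 0.07, adjusted p = 0.199).

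KSR1, a scaffold that holds RAF, MEK and ERK together, rose in 6 lines. In TCCSUP it went from 1.69 ± 0.41 to 23.8 ± 1.4 CPM (3.84 ± 0.12, edgeR adjusted p = 8.14e-11), and it rose by 1.98 in VMCUB, 1.60 in T24, 0.99 in HT1376, 0.73 in 639V and 0.59 in SW780. HT1197, with the highest KSR1 level (115 ± 1.6 CPM in DMSO), had -0.01 ± 0.04 (adjusted p = 0.902), and KU1919 0.19 ± 0.20 (adjusted p = 0.577). These calls of DUSP9 and KSR1 by line held under each of 12 alternatives, and both genes were picked out here after their values were seen. The shared fit called neither DUSP9 (0.94 ± 0.38, edgeR adjusted p = 0.12) nor KSR1 (1.15 ± 0.38, 0.0777).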
